A study of Mus musculus with 8 samples.

Results

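The aminoacyl-tRNA synthetases, the enzymes that join each amino acid to its transfer RNA, were followed through a tumor model of TSC2 loss under rapamycin, loratadine and their combination. Their genes were chosen by name alone, as every symbol that is 1 letter followed by Ars, with or without a final digit, plus Eprs, Farsa and Farsb. This gave 37 of the 35539 genes listed. The 20 without a final 2 are called cytosolic below and the 17 with a final 2 mitochondrial, although Gars and Kars make the enzymes of both compartments from 1 gene and are counted as cytosolic. All 37 reached 1 TPM in at least 2 tumors and were tested, so no member was lost to the filter on low values. TPM is a gene's share of the transcripts of a library, corrected for the gene's length, so levels can be compared between genes.

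Cytosolic synthetases charge the transfer RNAs used by cytosolic ribosomes, and 8 of them sit with 3 scaffold proteins in the multisynthetase complex, while the nuclear-encoded mitochondrial enzymes serve the translation of the mitochondrial genome. Loss of TSC2 leaves the kinase complex mTORC1 active, and rapamycin inhibits that complex. The transcription factor ATF4, whose translation rises with amino acid shortage and with mTORC1 activity, is known to bind and activate many cytosolic synthetase genes together with genes of serine and asparagine synthesis.

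RNA was sequenced from 8 subcutaneous tumors grown from 105K, a single Tsc2-null line that the paper describes as mouse kidney cystadenoma cells. The tumors grew in immunocompetent C57BL/6J females that were 6 weeks old at injection by the paper's methods. All 8 tumors therefore share the Tsc2-null cells and differ in treatment. Vehicle (0.2% carboxymethylcellulose) was given to the mice of tumors B1L and F5L, loratadine, a histamine H1 receptor antagonist, at 25 mg/kg/day to those of B3R and F3R, rapamycin at 0.25 mg/kg/day to those of D1L and G3L, and both drugs at these doses to those of A3L and C1R. Rapamycin was given intraperitoneally, and for loratadine the labels name the same route while the paper names the oral one. By the paper's methods neither drug was given on every day. Rapamycin was given in runs of days with rest between them, and loratadine on alternate days within the week. The code of a tumor is its cage, animal and side. A vehicle and a loratadine tumor came from each of cages B and F, and the 3 right-side tumors (B3R, F3R and C1R) had all received loratadine. The methods state that rapamycin, alone or combined, was started at a larger tumor volume, so start volume and rapamycin cannot be told apart.

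Read depth is unknown, because TPM does not keep it; the TPM of a tumor added up to 993546 at the lowest and 994645 at the highest. Between 13251 and 14371 genes reached 1 TPM in a tumor. Tsc2 itself stood at 42 to 53.8 TPM without and 52.1 to 78.1 with rapamycin, and a gene-level value cannot show which part of the gene the line has lost. The labels call the tumors mammary, whereas the paper gives the line a kidney origin. Of 7 mammary epithelial markers Wap was at 0 in every tumor, and Lalba, Csn2 and Csn1s1 stayed too low for the filter. Elf5 lay between 0.286 and 1.5 TPM, and Csn3 and Krt14, the rest of the list, passed the filter. The 7 markers summed to 174.4 TPM in B1L, 41.5 in F5L, 13.8 in B3R and 15.4 in F3R. With rapamycin the sum was 3.26 to 15.7 TPM. The tumors held other cells in differing amounts, and in bulk RNA fewer cells of a type and less RNA per cell cannot be told apart.

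In sum the cytosolic synthetase transcripts were lower in every tumor with rapamycin than in any without it, and the mitochondrial ones were not. The 20 cytosolic genes together made up 2641 and 3147 TPM with vehicle, 2129 and 2477 with loratadine, 1556 and 1660.1 with rapamycin, and 1541 and 1641 with both drugs. All 4 tumors that received rapamycin, alone or with loratadine (called rapamycin tumors below), lay under all 4 others, the mean being 1599 ± 59.7 against 2599 ± 423 TPM (SD, n = 4 each), and the loratadine tumors stood between the vehicle tumors and those with rapamycin. The 17 mitochondrial genes made up 336 and 422 TPM with vehicle, 345 and 331 with loratadine, 382 and 341 with rapamycin, and 394 and 367 with both drugs, and here the tumors with and without rapamycin overlapped. That overlap of the sums rested on Lars2, which was 2.21 times as high in F5L as in B1L. The mean log2(TPM + 1) of the 17 genes, where a single gene weighs less, overlapped as well. It was 3.77 to 4.06 with and 3.87 to 3.98 without rapamycin.

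**Figure D1:**
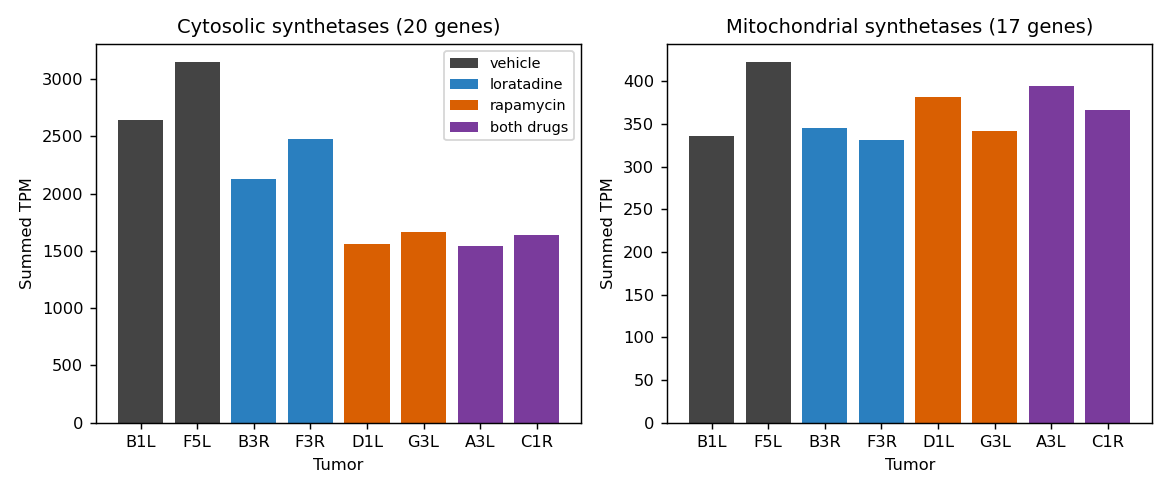
Summed TPM of the 20 cytosolic (left) and 17 mitochondrial (right) synthetase genes in each of the 8 tumors, 1 bar per tumor, colored by treatment, with both axes starting at 0. The 4 tumors with rapamycin run from 1541 to 1660.1 for the cytosolic genes and the 4 others from 2129 to 3147, while the mitochondrial sums overlap. The mitochondrial overlap rests on Lars2, which is high in F5L.

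The rapamycin effect was tested gene by gene with limma on log2(TPM + 1), 4 tumors against 4, with loratadine as the other term of the model and p-values adjusted over all 15095 genes tested. Of the 20 cytosolic genes 12 were lower with rapamycin (adjusted p under 0.05), 1 was higher and 7 did not pass, with a median log2 fold change of -0.79. Among all genes tested, 7.88% were lower and 12% higher, with a median of 0.12. Of the 17 mitochondrial genes none was lower and 2 were higher, with a median of 0.04. In 13 of the 20 cytosolic genes the 4 rapamycin tumors all lay below the 4 others, against 10.5% of all genes, and in 1 all lay above, against 15.7%. For the mitochondrial genes these counts were 2 and 3 of 17. Median-of-ratios scaling, which moved the median of all genes to -0.03 and the calls over all genes from 1189 lower and 1813 higher to 1826 lower and 1140 higher, gave 13 cytosolic genes lower and 0 higher, and 1 mitochondrial gene lower and 0 higher.

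**Figure D2:**
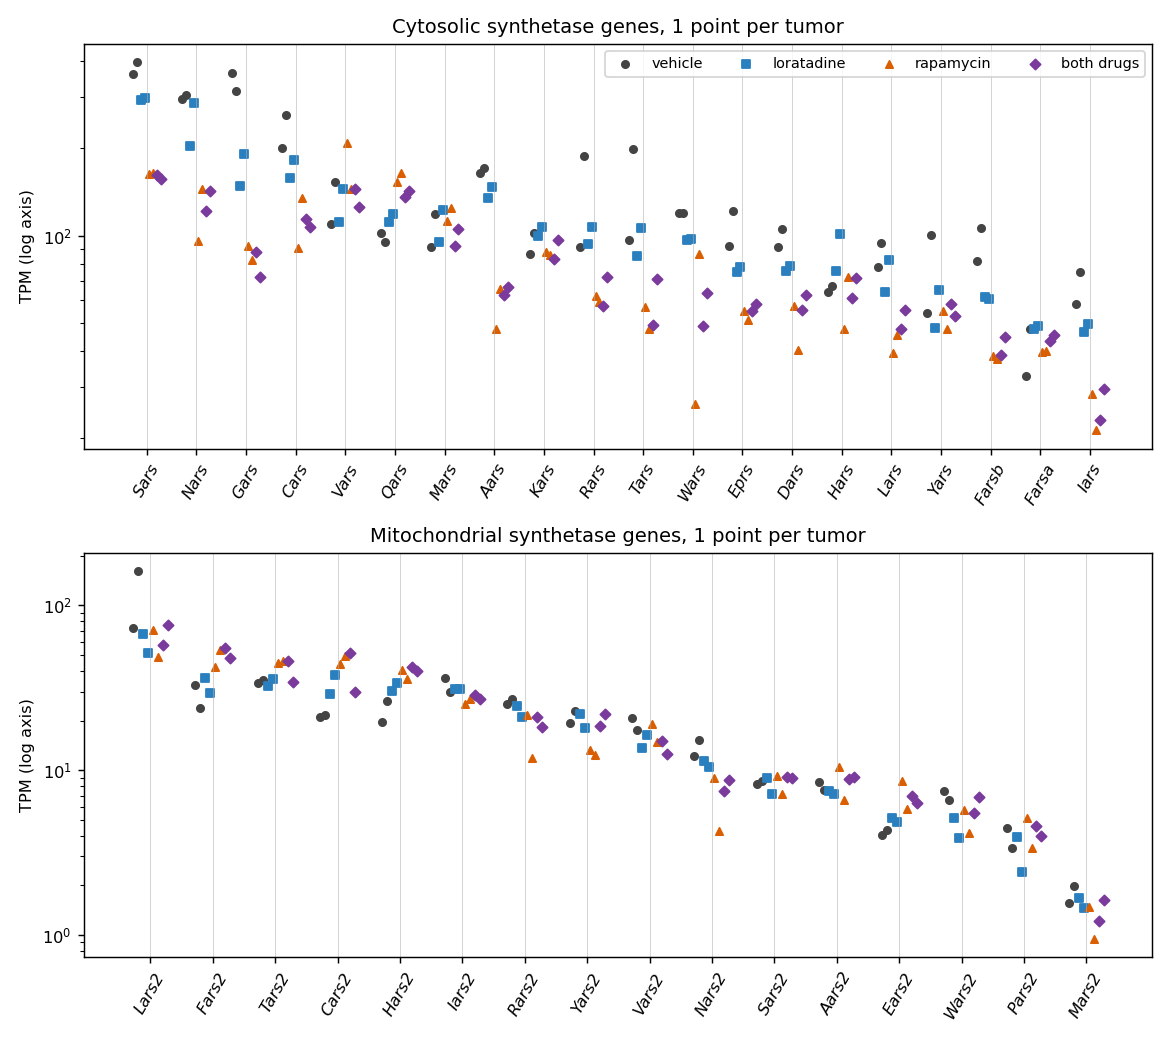
TPM of the 20 cytosolic (above) and 16 of the mitochondrial (below) synthetase genes in each tumor on a log axis, ordered by mean level, with 1 point per tumor and color and shape giving the treatment. The rapamycin and combination points of Gars, Aars, Sars and Iars lie apart from and below the others, whereas those of Mars, Kars and most mitochondrial genes mix with them.

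Gars, which charges glycine in both compartments (ENSMUSG00000029777, chr6:54987995-55029498 in NCBIM37), had the largest change of the 37 genes. It stood at 366 and 316 TPM with vehicle, 149 and 192 with loratadine, 91.8 and 82.4 with rapamycin, and 87.7 and 72.2 with both drugs. All 4 tumors with rapamycin, alone or with loratadine, were below the other 4, and the vehicle tumors were the highest. The log2 fold change with rapamycin was -1.51 ± 0.20 (SE, adjusted p = 0.00815), a level 2.86-fold lower on the log2(TPM + 1) scale.

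Aars, the alanine enzyme (ENSMUSG00000031960, chr8:113557044-113581564), was at 165 and 172 TPM with vehicle, 135 and 148 with loratadine, 47.6 and 65.2 with rapamycin, and 62.6 and 66.4 with both drugs. Its change was -1.35 ± 0.15 (SE, adjusted p = 0.00723), 2.55-fold lower, and the lowest tumor without rapamycin was about 2 times the highest with it. Sars, the serine enzyme and on average the most abundant transcript of the family, was at 362 and 396 TPM with vehicle, 295 and 299 with loratadine, 164 and 164 with rapamycin, and 162 and 157 with both drugs. The 4 rapamycin tumors lay within a few TPM of each other, 162 ± 3.17 TPM (SD, n = 4) against 338 ± 49.6, and the change was -1.05 ± 0.11 (SE, adjusted p = 0.00723). Nars, which charges asparagine, was at 297 and 307 TPM with vehicle, 205 and 288 with loratadine, 96.1 and 145 with rapamycin, and 122 and 143 with both drugs, again with no overlap between the tumors with and without rapamycin, and a change of -1.11 ± 0.19 (SE, adjusted p = 0.0116).

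Tars, the threonine enzyme, was at 96.9 and 199.7 TPM with vehicle, 84.9 and 106 with loratadine, 56.9 and 47.6 with rapamycin, and 49.1 and 70.8 with both drugs. Vehicle tumor F5L was about 2 times B1L, and although no rapamycin tumor reached the lowest of the others, the error of the change was wider at -1.04 ± 0.27 (SE, adjusted p = 0.0325). Cars, the cysteine enzyme, ran from 90.5 to 135 TPM with rapamycin and from 158 to 262 without it, a change of -0.83 ± 0.17 (SE, adjusted p = 0.0188).

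Wars, the tryptophan enzyme, whose gene is known to be induced by interferon gamma, was at 119 and 120.1 TPM with vehicle, 96.9 and 97.7 with loratadine, 26.3 and 86.2 with rapamycin, and 48.7 and 63.4 with both drugs. All 4 rapamycin tumors were below the others but spread widely, G3L standing highest and D1L lowest, and the change of -1.05 ± 0.33 (SE, adjusted p = 0.056) did not pass, although it did without D1L (adjusted p = 0.0421), without G3L (0.0256) or after median-of-ratios scaling (0.0454). The summed interferon gamma response genes were also lowest in D1L (1682 TPM) and highest in G3L (6876 TPM) among the rapamycin tumors. Without rapamycin they were lower with vehicle (4005 and 4855 TPM) than with loratadine (6222 and 6482), whereas Wars was higher with vehicle. None of that list's 18 genes passed the test for rapamycin. Their part in the Wars values was not tested.

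The multisynthetase complex was mixed. Of its 8 synthetases 5 were lower, 1 was higher and 2 did not pass (median log2 fold change -0.71), against 7 lower and 5 not passing among the 12 outside it (median -0.97). Iars, the isoleucine enzyme of the complex, was at 58 and 75.2 TPM with vehicle, 46.6 and 49.5 with loratadine, 28.5 and 21.3 with rapamycin, and 23.1 and 29.6 with both drugs. The tumors with rapamycin were all below those without it, and the change was -1.12 ± 0.18 (SE, adjusted p = 0.011). Rars, the arginine enzyme, was at 91.7 and 188 TPM with vehicle, 93.7 and 107 with loratadine, 61.9 and 59 with rapamycin, and 57.2 and 72 with both drugs, with F5L well above the other 3 tumors without rapamycin and a change of -0.87 ± 0.23 (SE, adjusted p = 0.0345). Eprs, which charges both glutamate and proline from 1 polypeptide, was at 92.2 and 122 TPM with vehicle, 75 and 78.2 with loratadine, 54.9 and 51.3 with rapamycin, and 55 and 58.2 with both drugs. Its change was -0.71 ± 0.15 (SE, adjusted p = 0.0203), and its 4 rapamycin tumors were close together at 54.8 ± 2.8 TPM (SD, n = 4). Lars and Dars, for leucine and aspartate, changed by -0.75 and -0.70 (adjusted p = 0.0201 and 0.0296).

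Qars, the glutamine enzyme of the same complex (ENSMUSG00000032604, chr9:108410336-108418272), moved the other way. It was at 102 and 95 TPM with vehicle, 112 and 118 with loratadine, 153 and 165 with rapamycin, and 135 and 143 with both drugs. The rapamycin tumors were all above the others and the change was 0.48 ± 0.12 (SE, adjusted p = 0.0305), but after median-of-ratios scaling it was 0.31 with an adjusted p of 0.101, and the call was also lost with any of 6 tumors left out (B1L 0.0757, F5L 0.0885, B3R 0.055, D1L 0.0811, G3L 0.0549 and A3L 0.0622 as adjusted p). Kars, the lysine enzyme of both compartments and also of the complex, was at 86.4 and 102 TPM with vehicle, 100.1 and 107 with loratadine, 87.8 and 85.8 with rapamycin, and 83 and 96.4 with both drugs and overlapped, with -0.16 ± 0.11 (SE, adjusted p = 0.315). Mars, for methionine, changed least of the cytosolic genes at 91.5 and 119 TPM with vehicle, 95.3 and 123 with loratadine, 113 and 125 with rapamycin, and 92 and 105 with both drugs, a change of 0.02 ± 0.15 (SE, adjusted p = 0.921) that turned to -0.14 under median-of-ratios scaling.

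The phenylalanine enzyme has a pair of subunits with unlike calls. Farsb, the beta subunit, was at 82 and 106 TPM with vehicle, 61.2 and 60.3 with loratadine, 38.4 and 37.5 with rapamycin, and 38.6 and 44.6 with both drugs. Every rapamycin tumor was below every other and the change was -0.91 ± 0.18 (SE, adjusted p = 0.0154). Farsa, the alpha subunit, was at 32.8 and 47.6 TPM with vehicle, 47.7 and 48.6 with loratadine, 39.6 and 40.1 with rapamycin, and 43.3 and 45.3 with both drugs, which overlapped, with vehicle tumor B1L the lowest of the 8 and a change of -0.05 ± 0.14 (SE, adjusted p = 0.801). The difference between the 2 subunits was not tested. Among the remaining cytosolic genes, Hars (histidine), Yars (tyrosine) and Vars (valine) overlapped between the groups, with changes of -0.28, -0.27 and 0.25 (adjusted p = 0.262, 0.408 and 0.344).

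**Figure D3:**
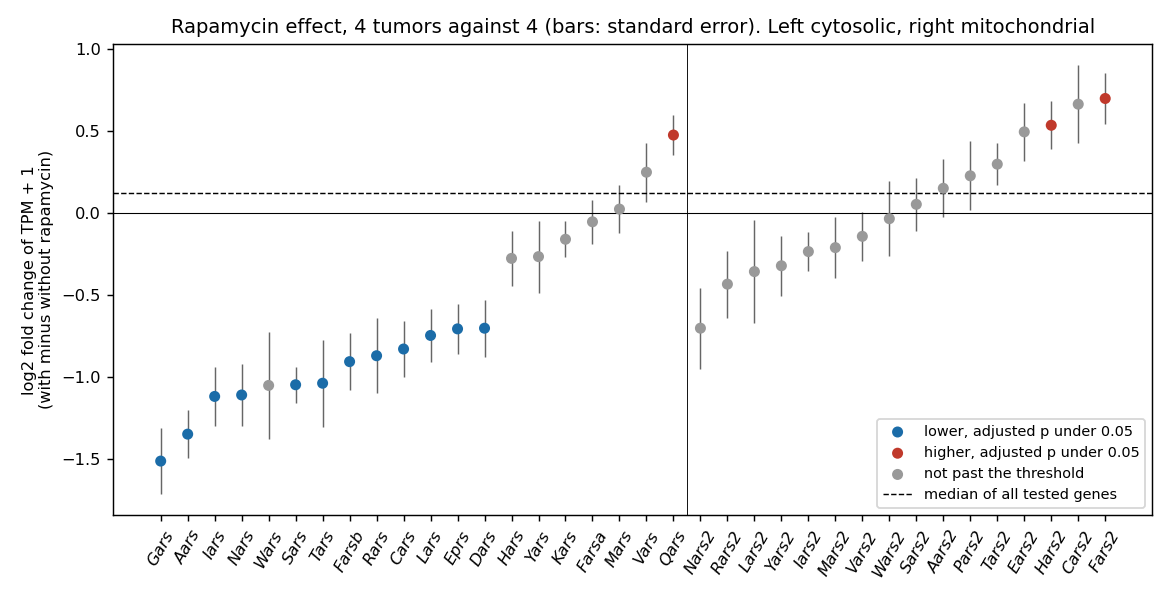
Log2 fold change of TPM + 1 with minus without rapamycin for the 20 cytosolic genes on the left and 16 of the mitochondrial genes on the right, with bars of 1 standard error, and a dashed line at the median of all 15095 genes tested (0.12). The 12 blue points are lower and the 3 red ones (Qars, Hars2 and Fars2) higher at an adjusted p under 0.05, and the gray points did not pass.

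By the 2 structural classes of synthetases, which differ in the fold of the catalytic domain, 7 of the 10 cytosolic class II genes were lower and none higher (median -0.97), and of the 9 class I genes 4 were lower and 1 higher (median -0.75). Eprs, which holds a domain of each class, was left out of this count. The summed class II transcripts were at 727 to 829 TPM with and 1229 to 1819 without rapamycin, and those of class I at 721 to 829 and 826 to 1207, so that the tumors overlapped in class I only. The difference between the classes was not tested.

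How firm the 12 lower calls are differed by gene. Aars, Farsb, Gars, Iars, Nars and Sars kept theirs in each of 20 alternatives. Among the 20 are the wider threshold of 0.1, under which no call can be lost, and the second table, whose values are nearly the same. Cars lost its call without F5L (adjusted p = 0.0531). Eprs did so without F5L, D1L or A3L (0.0501 to 0.0602), Lars without B1L, F5L, D1L or A3L (0.0527 to 0.0603), Dars without B1L, F5L, F3R, D1L or A3L (0.0525 to 0.0843), Rars without B3R, F3R, D1L, G3L or A3L (0.0501 to 0.092), and Tars without any tumor except B3R and C1R (0.0517 to 0.0894). With no filter on low values Dars, Rars and Tars did not pass either (0.0543, 0.0677 and 0.0663). Without F5L or without A3L 7 cytosolic genes passed, and without D1L 8. When the model also held the side on which the tumor grew, 7 passed. Side and loratadine differ only in A3L, so this model gives the same changes as leaving A3L out. It cannot show a dependence on side.

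Genes of proliferation and markers of cell types differed with rapamycin as well, where 7.88% of all genes tested were lower and 12% higher. All 13 proliferation genes were lower, their summed TPM being 709.8 to 1104 without and 84.4 to 321 with rapamycin. Of the T cell markers 7 of 8 were higher (11.2 to 34.5 without and 42 to 112 TPM summed with rapamycin), of the fibroblast and pericyte markers 4 of 11 (477 to 1729 without and 858 to 4711 with), and of the renal tubule markers 2 of the 6 tested (149.9 to 299 without and 381 to 632 with). Endothelial markers were lower in 2 of 7 (83.1 to 123 without and 48.2 to 83.7 with) and epithelial ones in 1 of 7 (1045 to 2175 without and 614 to 1412 with), and 1 of 7 mast cell markers was higher (17.8 to 76.1 without and 55.5 to 551 with). None of the adipocyte (9), macrophage (9), skeletal muscle (5 tested) or mammary (3 tested) markers passed. The single mast cell call is close to the 12% of all genes that were higher. Since the line came from kidney, renal tubule and epithelial markers may be those of the tumor cells themselves. The part of these differences in the synthetase values was not tested.

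Promoters were searched for the element by which ATF4 and its C/EBP partners are known to bind, the C/EBP-ATF response element, written TGATGNAA on both strands, where N is any base. The RefSeq table (GRCm38.p6) held a window for 27 of the 37 genes, from 250 bases before to 50 after the start. Genes with no window there include Cars, Rars, Vars, Wars, Hars, Lars, Nars, Hars2 and Pars2. The element was in 5 of 13 cytosolic windows (38.5%), in 0 of 14 mitochondrial ones and in 4.51% of the 27025 genes of the table. Of the cytosolic genes lower with rapamycin 4 of 8 had it, and of those not lower 1 of 5, namely Yars. Windows with the element are shown to set its place beside the values above. The 5 windows follow 5′ to 3′ along the gene, with the element in capitals, shown as its reverse complement where it lies on the other strand. They are Aars (chr8:111033592-111033891, plus strand), Gars (chr6:55037751-55038050, plus), Iars (chr13:49681880-49682179, plus), Tars (chr15:11399609-11399908, minus) and Yars (chr4:129189653-129189952, plus).
Aars: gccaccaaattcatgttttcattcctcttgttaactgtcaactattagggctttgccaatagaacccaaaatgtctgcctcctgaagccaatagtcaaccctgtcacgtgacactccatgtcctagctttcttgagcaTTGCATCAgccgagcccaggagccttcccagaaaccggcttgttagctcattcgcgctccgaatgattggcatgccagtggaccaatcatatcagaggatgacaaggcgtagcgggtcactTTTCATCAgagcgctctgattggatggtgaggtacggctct
Gars: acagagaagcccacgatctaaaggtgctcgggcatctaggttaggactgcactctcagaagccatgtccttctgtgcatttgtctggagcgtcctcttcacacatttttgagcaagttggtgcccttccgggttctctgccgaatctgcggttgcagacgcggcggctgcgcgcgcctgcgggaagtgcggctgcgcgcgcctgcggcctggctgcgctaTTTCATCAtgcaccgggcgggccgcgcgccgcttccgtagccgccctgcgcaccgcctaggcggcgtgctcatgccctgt
Iars: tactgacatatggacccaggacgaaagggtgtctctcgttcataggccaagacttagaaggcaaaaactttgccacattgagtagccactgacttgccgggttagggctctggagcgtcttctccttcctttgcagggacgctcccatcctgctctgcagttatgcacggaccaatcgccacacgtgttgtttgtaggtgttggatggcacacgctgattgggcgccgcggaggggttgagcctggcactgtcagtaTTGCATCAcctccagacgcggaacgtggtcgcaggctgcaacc
Tars: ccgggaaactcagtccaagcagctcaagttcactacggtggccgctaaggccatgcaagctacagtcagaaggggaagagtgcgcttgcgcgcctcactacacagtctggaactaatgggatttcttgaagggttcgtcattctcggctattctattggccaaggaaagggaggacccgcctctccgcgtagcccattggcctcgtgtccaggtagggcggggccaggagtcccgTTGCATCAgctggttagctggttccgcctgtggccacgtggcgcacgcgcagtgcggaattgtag
Yars: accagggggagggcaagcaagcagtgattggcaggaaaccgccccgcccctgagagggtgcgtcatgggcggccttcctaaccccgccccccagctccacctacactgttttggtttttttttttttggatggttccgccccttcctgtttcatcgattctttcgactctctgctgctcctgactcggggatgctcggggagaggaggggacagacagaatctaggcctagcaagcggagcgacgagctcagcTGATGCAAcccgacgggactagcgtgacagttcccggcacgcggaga
In Aars the elements begin 112 bases before and 9 after the start, in Gars 30 and in Tars 15 before it, and in Iars 7 and in Yars 3 after it. The form TGATGCAA, which the first search includes, was in 4 of the 13 cytosolic windows (Aars, Iars, Tars and Yars) and in 1.03% of all genes. The E-box CACGTG, the element of MYC and related factors, was in Aars, Farsb, Iars and Tars (4 of 13), in Ears2 alone among the mitochondrial genes and in 8.09% of all genes. These are matches of letters in one window, and binding was not measured.

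Genes that act beside the synthetases were taken from lists of their roles. Of the 3 scaffold proteins of the complex, Eef1e1 was at 48.4 and 49.5 TPM with vehicle, 29.2 and 35.8 with loratadine, 16.1 and 14.1 with rapamycin, and 14 and 22.1 with both drugs, and was lower with rapamycin at a log2 fold change of -1.24 ± 0.22 (SE, adjusted p = 0.012). Aimp2 was lower as well, at -0.47 ± 0.12 (SE, adjusted p = 0.0341), and Aimp1, at -0.31 ± 0.12 (SE, adjusted p = 0.111), did not pass. Of 14 other genes of tRNA charging and proofreading 1 was lower and 0 were higher, where 7.88% and 12% of all genes tested were. Of 23 genes of RNA polymerase III, which transcribes tRNA genes, 1 was lower and 3 higher, counts close to those shares. Polr3g, a subunit with a paralog, was lower (-0.78, adjusted p = 0.018) while that paralog Polr3gl was higher (0.93, adjusted p = 0.0237), and so were Maf1, the repressor of the polymerase that mTORC1 is known to inactivate (0.78), and Brf1 (0.50).

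Of 21 tested genes of tRNA processing and export 3 were lower and 3 higher, the latter close to the share of all genes (7.88% lower and 12% higher). Xpot, the exporter of tRNA from the nucleus, was at 110.4 and 182 TPM with vehicle, 78.1 and 84.1 with loratadine, 67.9 and 48.6 with rapamycin, and 52.3 and 59.4 with both drugs, a change of -0.91 ± 0.22 (SE, adjusted p = 0.0285), with F5L again the highest tumor. Pop4 and Trmt10c were the other two that were lower (-0.57 and -0.72), and Rpp21, Elac1 and Pop5 were higher (0.54, 0.78 and 0.72). Of 7 tested genes of cytosolic elongation Eif5a (-0.62) and Eef2k (-0.55) were lower, and of 9 mitochondrial translation factors 1 was lower, the elongation factor Gfm1, at -1.02 ± 0.17 (SE, adjusted p = 0.0117).

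ATF4 and 19 known targets other than the synthetases had 11 genes lower and none higher, with a median log2 fold change of -0.94. Of all genes tested 7.88% were lower and 12% higher. Atf4 itself was at 325 and 517 TPM with vehicle, 260.3 and 302 with loratadine, 163 and 268 with rapamycin, and 199 and 205 with both drugs, and with -0.72 ± 0.22 (SE, adjusted p = 0.0514) it did not pass. Asns, the asparagine synthetase, was at 259.9 and 243 TPM with vehicle, 103 and 103 with loratadine, 33.8 and 31.6 with rapamycin, and 33.5 and 39.3 with both drugs. Its order of groups was that of Gars, with vehicle highest, loratadine between and all 4 rapamycin tumors lowest, and the change was -2.19 ± 0.27 (SE, adjusted p = 0.00753). Phgdh, the first enzyme of serine synthesis, changed by -2.12, Mthfd2 of mitochondrial folate metabolism by -2.25 and Aldh18a1 of proline synthesis by -1.19 (adjusted p = 0.00734, 0.00816 and 0.0114).

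The mitochondrial synthetases were lower in level than most cytosolic ones. Of the 17 genes 2 passed, both higher, which is close to the 12% of all genes that were higher. Their means over all tumors ran from 1.49 TPM for Mars2 to 75.7 for Lars2. Fars2, the mitochondrial phenylalanine enzyme, which is a single chain (ENSMUSG00000021420, chr13:36209280-36629461), was at 32.7 and 23.8 TPM with vehicle, 36.2 and 29.3 with loratadine, 42.4 and 53.5 with rapamycin, and 55.4 and 48 with both drugs. All 4 rapamycin tumors were above the others, 1.62-fold higher, a change of 0.70 ± 0.15 (SE, adjusted p = 0.021). Hars2, for histidine, was at 19.6 and 26.2 TPM with vehicle, 30.2 and 33.7 with loratadine, 40.5 and 35.7 with rapamycin, and 42.2 and 39.9 with both drugs, with the vehicle tumors lowest and a change of 0.54 ± 0.15 (SE, adjusted p = 0.0382).

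Both of these calls were lost under median-of-ratios scaling (0.54 for Fars2 and 0.38 for Hars2, adjusted p = 0.056 and 0.0717). Fars2 lost its call without F5L, F3R or A3L (adjusted p = 0.0619, 0.0533 and 0.0694), and Hars2 without any tumor except C1R (0.0525 to 0.1). Ears2, for glutamate, also had all rapamycin tumors above the others, at 4.03 and 4.31 TPM with vehicle, 5.15 and 4.84 with loratadine, 8.57 and 5.79 with rapamycin, and 6.95 and 6.35 with both drugs, but with 0.50 ± 0.18 (SE, adjusted p = 0.0825) it did not pass. Cars2, for cysteine, was at 21 and 21.6 TPM with vehicle, 29 and 37.7 with loratadine, 44 and 49 with rapamycin, and 51.6 and 29.7 with both drugs. C1R lay with the tumors without rapamycin, the change was 0.66 ± 0.24 (SE, adjusted p = 0.0805), and without C1R it was 0.90 with an adjusted p of 0.0163.

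Nars2, for asparagine, had the lowest log2 fold change of the mitochondrial genes, at 12.2 and 15.3 TPM with vehicle, 11.4 and 10.4 with loratadine, 9.01 and 4.26 with rapamycin, and 7.43 and 8.77 with both drugs. No rapamycin tumor reached the others, and the change of -0.70 ± 0.25 (SE, adjusted p = 0.0773) passed only under median-of-ratios scaling (adjusted p = 0.0432), quantile normalization (0.0499) or the wider threshold of 0.1. Iars2 was also without overlap (25.2 to 28.6 with and 29.9 to 36 TPM without rapamycin), with -0.24 ± 0.12 (SE, adjusted p = 0.186). Wars2, for tryptophan, changed least of the mitochondrial genes, at 7.47 and 6.61 TPM with vehicle, 5.13 and 3.88 with loratadine, 5.71 and 4.14 with rapamycin, and 5.49 and 6.82 with both drugs and with overlapping groups. Lars2, for leucine, stood at 162 TPM in F5L and between 48.8 and 75.9 in the other 7 tumors.

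The remaining mitochondrial genes (Aars2, Mars2, Pars2, Rars2, Sars2, Tars2, Vars2 and Yars2) had log2 fold changes between -0.43 and 0.30 and none passed. By class, 2 of the 8 mitochondrial class II genes were higher (median 0.19), against 12% of all genes, and none of the 9 class I genes passed (median -0.21). The difference between the classes was not tested. The summed class II transcripts lay at 166 to 188 TPM with and 127 to 146 without rapamycin, with no overlap, and the class I sums, which hold Lars2, overlapped (175 to 209 and 186 to 293).

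The level of a cytosolic transcript was set against that of the mitochondrial enzyme for the same amino acid within each tumor, a ratio in which the scaling of a library cancels. The ratio was taken for 17 such pairs, Eprs serving glutamate and proline and Fars2 standing against both subunits. In 10 pairs the ratio was lower in all 4 rapamycin tumors than in any other tumor, and in 1, Vars to Vars2, it was higher (9.63 to 11 against 5.33 to 8.92). This count uses the same cytosolic genes as the counts above and is not independent of them. Both pairs of Eprs and both pairs of Fars2 are among the 10. So are Hars to Hars2 and Farsa to Fars2, although Hars and Farsa themselves overlapped and were not called. No share over all genes was computed for such ratios. The alanine ratio Aars to Aars2 was 18.2 to 22.8 without and 4.58 to 9.92 with rapamycin. For serine, Sars to Sars2 was 32.8 to 46.4 without and 17.5 to 23.1 with it, and for cysteine Cars to Cars2 was 4.86 to 12.1 without and 2.06 to 3.59 with it. For phenylalanine the cytosolic subunits were at or above Fars2 without rapamycin and below it with the drug: Farsb to Fars2 was 1.69 to 4.47 and then 0.696 to 0.929, and Farsa to Fars2 1.0 to 2.0 and then 0.75 to 0.944. The methionine pair was the most uneven, with Mars 56.8 to 84.3 times Mars2 without and 64.3 to 132 times with rapamycin, and its groups overlapped.

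**Figure D4:**
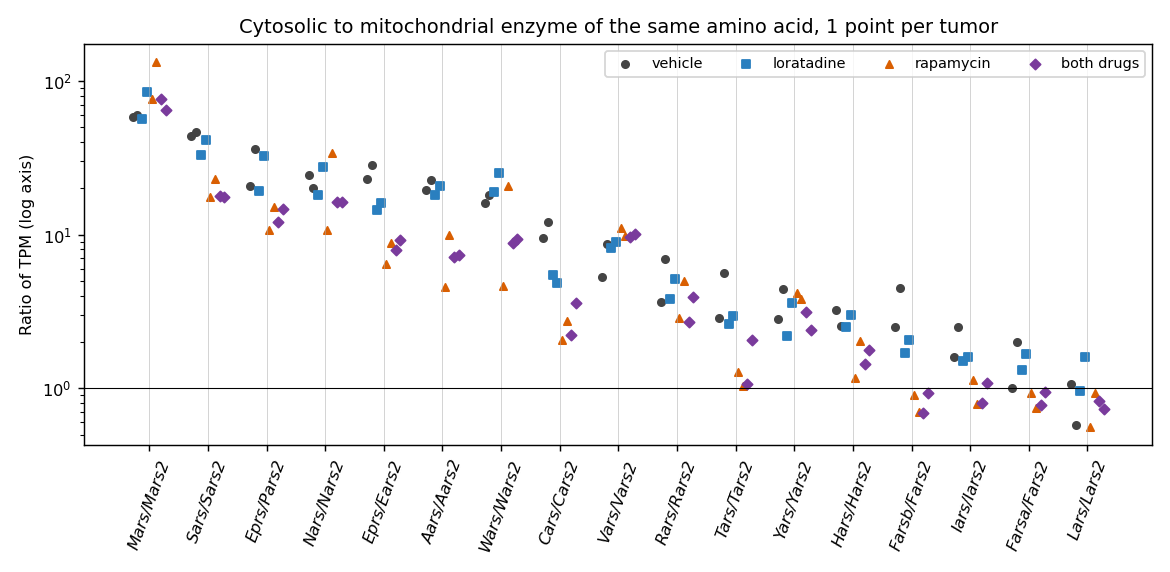
Ratio of the TPM of each cytosolic synthetase gene to that of the mitochondrial gene for the same amino acid, on a log axis, with 1 point per tumor and color and shape giving the treatment. In 10 of the 17 pairs the rapamycin and combination points all lie below the others, and for Vars/Vars2 they lie above.

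The study asked how loratadine compares with rapamycin and what the combination adds, and the 4 treatments were compared in pairs of 2 tumors against 2. These comparisons share tumors, so the values below are side by side and not independent. For rapamycin against vehicle 11 cytosolic genes were lower and Qars was higher (5.21% and 6.65% of all genes), with a median of -1.03, and Cars2 was the only mitochondrial gene called at a log2 fold change of 1.09 ± 0.28 (SE, adjusted p = 0.0481). For both drugs against vehicle 8 cytosolic genes were lower (3.42% lower and 7.18% higher of all genes), with a median of -0.96, and Hars2 was higher at 0.83 ± 0.20 (SE, adjusted p = 0.0438). Gars changed by -1.95 ± 0.19 (SE, adjusted p = 0.00971) with rapamycin and by -2.08 ± 0.19 (SE, adjusted p = 0.00894) with both drugs, and Aars by -1.58 ± 0.18 (SE, adjusted p = 0.0121) and -1.37 ± 0.18 (SE, adjusted p = 0.0144). Leaving out a tumor of the groups compared leaves 1 there, which is then assumed to vary like the tumors of the other groups. For rapamycin against vehicle 0 cytosolic genes passed without B1L, 3 without F5L and 7 without D1L or G3L, and for both drugs against vehicle 1 passed without B1L, 2 without F5L or C1R and 0 without A3L. Over all 8 tumors left out in turn, the cytosolic median stayed between -1.21 and -0.86 for rapamycin against vehicle and between -1.09 and -0.66 for both drugs against vehicle. The mitochondrial counts were between 0 and 2 in both comparisons when 1 tumor was left out.

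**Figure D5:**
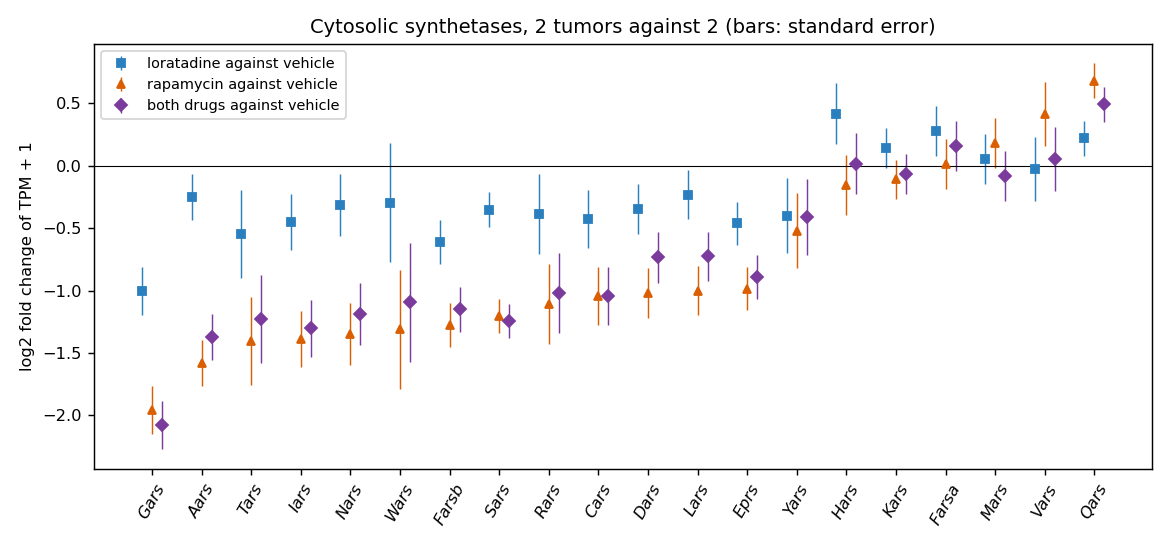
Log2 fold change of TPM + 1 against vehicle for the 20 cytosolic synthetase genes under loratadine (squares), rapamycin (triangles) and both drugs (diamonds), 2 tumors against 2, with bars of 1 standard error. The 3 series share the vehicle tumors B1L and F5L, and the rapamycin and combination points lie close together, with Gars at -1.95 and -2.08.

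Loratadine gave no member past the threshold. In the 4 tumors with it against the 4 without, 0 members and 0% of all genes passed with limma (2 members and 8.31% of all genes at an unadjusted p under 0.05), and the median was -0.13 for the cytosolic and 0.01 for the mitochondrial genes. For loratadine against vehicle 0 members passed, and 0.0199% of all genes did (3 genes), while 6 members and 12.1% of all genes had an unadjusted p under 0.05. The cytosolic median was -0.33, and 13 of the 20 cytosolic and 7 of the 17 mitochondrial genes were lower in the loratadine than in the vehicle tumor of both cages B and F, as were 20.8% of all genes. Gars had the smallest adjusted p, at -1.01 ± 0.19 (SE, adjusted p = 0.233), the log2 difference between the tumors of a cage being -1.29 in B and -0.72 in F.

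Adding rapamycin to loratadine gave 0 members and 0% of all genes past the threshold (10 members and 14.6% of all genes at an unadjusted p under 0.05), with a cytosolic median of -0.52, and the largest changes were Aars at -1.12 ± 0.18 (SE, adjusted p = 0.146) and Gars at -1.07 ± 0.19 (SE, adjusted p = 0.165). Adding loratadine to rapamycin gave 0 members and 0% of all genes (1 member and 2.38% of genes at an unadjusted p under 0.05), with a median of 0.10. The interaction, which asks whether rapamycin changed a gene by the same amount with and without loratadine, gave 0 members and 0.00662% of all genes, with 3 members and 4.76% of all genes at an unadjusted p under 0.05 and adjusted p of at least 0.925 for the members. For Gars the interaction was 0.88 ± 0.27 (SE, adjusted p = 0.925), its positive sign standing for a smaller difference where loratadine was given, and the cytosolic median was 0.47. With 2 tumors a group, differences that did not pass are not shown to be absent.

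The 2 vehicle tumors were not alike. In F5L 4 of the 37 genes were over 1.5 times their level in B1L, namely Lars2 (2.21 times), Tars (2.06), Rars (2.05) and Yars (1.86), and none was over 1.5 times higher in B1L. Some values may also hold reads of a neighbor, since whether reads were counted by strand is not given in the sources used here. Hars and Hars2 overlap by 198 bases on opposite strands in NCBIM37, Mars overlaps Ddit3 by 68, Farsb overlaps Sgpp2 by 2329, Iars2 overlaps Rab3gap2 by 2018, and Iars holds a pair of small nucleolar RNA genes on its own strand.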

How the data were processed

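By the paper's methods, the authors trimmed single-end reads, quantified transcripts against mm9 with Kallisto and used tximport for gene values. STAR 2.4.0f1, SAMtools 0.1.18 and bedtools, again with mm9, are the tools in the processing notes of the submitters. It is not settled which of these made the values. For each library the authors deposited TPM by gene, in 2 tables whose values agree within 5e-07 TPM, and the first was used. No per-sample column was left out. TPM keeps no depth, so precision rests on the spread between tumors, each from its own mouse.

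From the deposited TPM, log2(TPM + 1) was taken and fitted in R 4.3.3 by limma 3.58.1, moderated with a trend on intensity. Tests were two-sided, and p-values were adjusted by Benjamini and Hochberg over the 15095 genes that reached 1 TPM in 2 or more libraries (threshold 0.05). The added 1 makes fold changes of low genes too small. Each drug effect is a term in an additive model (4 against 4, 5 residual degrees of freedom). A model of 4 group means gave the interaction and each pair of treatments (4 residual degrees of freedom). The fit was tested on simulated data first. Promoter windows come from RefSeq GRCm38.p6, coordinates of genes from NCBIM37 (mm9), and figures from matplotlib 3.10.9 in Python 3.11.15.

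Members and lists (9 of pathways and 10 of cell markers) were chosen with earlier results of these data known. Values in every tumor are given for the 8 cytosolic and 5 mitochondrial genes with the largest rapamycin effect among those called, the 2 of each compartment with the smallest, members called in the opposite direction or with loratadine, and Gars, Kars, Eprs, Farsa, Farsb, Qars and Wars. From each list up to 4 genes with the smallest p were taken, and Atf4 and Tsc2 always. Other members shown tumor by tumor, other list genes, and the genes overlapping a member, were named after their values were seen. Not every gene this rule selects is reported here. Pairing by cage was used only as an alternative.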

Additional observations from a re-analysis of the deposited data

Results flagged for a closer look

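In each group of 4 tumors, with and without rapamycin, the highest and lowest TPM of every member were checked for a gap from the rest (74 groups, of which chance alone flags about 1 in 20), and 5 values in 4 tumors stood apart. Without rapamycin, Rars was at 188 TPM in F5L against 91.7 to 107 in the other 3 tumors, and Farsa was at 32.8 TPM in B1L against 47.6 to 48.6. With rapamycin, Farsb was at 44.6 TPM in C1R against 37.5 to 38.6, Tars2 was at 34.2 TPM in C1R against 44.7 to 46.2, and Sars2 was at 7.12 TPM in G3L against 9.0 to 9.27. C1R was also the tumor with the highest proliferation and skeletal muscle marker sums among those with rapamycin (321 and 173 TPM).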

How the results depend on the processing

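Of 308 counts of called members under an alternative, 254 stayed within 1.5 times of the reported count, and of 718 values of single genes 641 kept direction and call, 55 lost and 10 gained a call and 12 turned. Most of the 254 are counts of 0 that stayed at 0. They come from the loratadine effect, loratadine against vehicle, both drugs against either drug alone, and the interaction. The total therefore says little about the counts above 0, which follow. The cause of the changes was not tested. For the rapamycin effect the mitochondrial count of 2 became 1 with no filter or median-of-ratios scaling (there a lower gene) and 5 at an adjusted p under 0.1. When the tumor's side was added as a term, which amounts to leaving A3L out, it became 0 and the cytosolic count of 13 became 7. For rapamycin against vehicle the cytosolic count of 12 became 7 with no filter and 1 with only the groups compared, and the mitochondrial count of 1 became 0 with no filter, quantile normalization, no intensity trend or only the groups compared, 2 with a mean of at least 5 TPM or median-of-ratios scaling, and 5 at an adjusted p under 0.1. For both drugs against vehicle the cytosolic count of 8 became 13 at an adjusted p under 0.1, and the mitochondrial count of 1 became 0 with no filter, median-of-ratios scaling, quantile normalization, no intensity trend or only the groups compared, 2 with a mean of at least 5 TPM and 4 at an adjusted p under 0.1. Leaving out 1 tumor gave 7 to 13 cytosolic and 0 to 3 mitochondrial genes for the rapamycin effect, 0 to 9 and 0 to 2 for rapamycin against vehicle, and 0 to 10 and 0 to 2 for both drugs against vehicle. Median-of-ratios scaling turned Mars to -0.14 and Sars2 to -0.10, and quantile normalization turned Pars2 to -0.0285 and Sars2 to -0.0859. With 1 tumor left out Wars2 ran from -0.18 to 0.13, Mars from -0.0827 to 0.13, Farsa from -0.17 to 0.0379 and Sars2 from -0.0224 to 0.14. The paired fit of loratadine against vehicle, with the cage as a replicate block and 1 residual degree of freedom, called 0 members of either compartment. With unknown depth and 2 tumors a group, small changes of low genes such as Mars2 could not be resolved.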
